A study of Drosophila melanogaster with 4 samples.

Results

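Distal-less (Dll), the homeodomain transcription factor that specifies the distal parts of fly limbs, was mapped by ChIP-seq, the sequencing of DNA that an antibody pulls down with its chromatin, and its peaks were examined around 4 genes of the epidermal growth factor receptor (EGFR) pathway, namely vn, rho, ru and pnt. The peaks were chosen by position alone, as those whose midpoint lay in 1 of 3 windows of FlyBase release 5. These were 3L from 5800000 to 5900000 for vn, 3L from 1390000 to 1500000 for rho and ru together, and 3R from 19090000 to 19190000 for pnt. They held 30, 34 and 21 peaks, which makes 85 of the 16117 peaks of the list. The series comprised 2 libraries of Dll ChIP DNA and 2 of input DNA, all from Drosophila melanogaster white prepupae, the immobile stage that opens metamorphosis. Both groups share 1 strain, Y cn bw sp. Its labelled genotype carries y[1] with oc[R3.2] first. A second set consists of Gr22b[1] and Gr22d[1] beside cn[1], CG33964[R4.2], bw[1] and also sp[1]. The last set is LysC[1], lab[R4.2], MstProx[1] and GstD5[1] together with Rh6[1]. ChIP used an affinity-purified rabbit polyclonal antibody raised against Dll. The labels name no tissue, age in hours or number of animals, so a peak cannot be assigned to legs, antennae, wings or any other organ.

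In the fly EGFR pathway, secreted ligands bind the receptor, a kinase cascade through Ras and MAP kinase carries the signal, and ETS-domain transcription factors carry out the response in the nucleus. Vein, encoded by vn, is a secreted, neuregulin-like ligand that is active as made. Rhomboid, encoded by rho, is an intramembrane protease that cleaves the membrane-bound precursor of the ligand Spitz and so controls where that ligand is released. Roughoid, encoded by ru and also called rhomboid-3, is a protease of the same family best known from the eye. Pointed, encoded by pnt, is an ETS-domain activator that acts downstream of MAP kinase. In the leg disc, EGFR signalling from the centre patterns the tarsus, in the domain where Dll is also active.

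Gene positions of release 5 were not used, since the available gene table is that of release 6, and coordinates of one release do not hold in the other. Where in a window each gene lies, and whether its whole body lies inside, was therefore not determined. All 4 genes were found in the release 6 table, from which only names and order were taken. By start position, vn stands on 3L between the protein-coding genes mad2 and CG5568, and pnt stands on 3R between bb8 and PolE1. Between ru and rho there are 5 other protein-coding genes. Beyond rho, with 1 protein-coding gene between them, lies stet, which encodes another protease of the rhomboid family. Peaks of these windows can thus belong to other genes than the 4 named.

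The outcome of the experiment is 1 list of peaks with a score for each. It gives 0 values per library, so depth is unknown, and replicates cannot be compared. The score was deposited under the name of the caller MACS with no scale named, so scores only rank and describe peaks here, and their ratios do not measure amounts of bound protein. Spreads given here are between peaks or between windows. Since peaks of 1 list are not replicates and the loci were proposed with results of these data known, no p-value is given. Intervals of shares are exact 95% Clopper-Pearson intervals. They take each peak, or each gap for shares of gaps, as an independent draw and reflect counting error alone.

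The windows of vn and of rho and ru were rich in peaks for their arm, and that of pnt less so. Each was set beside other windows of its size, 100 kb for vn and pnt and 110 kb for rho and ru, laid end to end over the same arm. Since vn lies on the same arm as rho and ru, each locus fell among the comparison windows of the other. The window from 5790000 to 5900000, with 31 peaks over 24.2% of its length, was among those set beside rho and ru. Among those set beside vn was the window from 1400000 to 1500000, with 32 peaks over 24.0%. The vn window held 30 peaks against a median of 13 (interquartile range 7 to 20) over 241 other windows of 3L. Of those, 15 (6.22%) held as many or more. In the rho and ru window there were 34 peaks against a median of 13 (interquartile range 8 to 21) over 219 windows, of which 10 (4.57%) held as many or more. The pnt window held 21 peaks against a median of 13 (interquartile range 8 to 19) over 277 windows of 3R, of which 57 (20.6%) held as many or more. Peak number at pnt was thus above the middle of its arm without being among the highest.

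By the length lying inside peaks, vn and the rho and ru window stood further out. Peaks made up 25.8% of the vn window, or 25845 bp, against a median of 6.54% (interquartile range 3.57 to 10.6%), and 3 of the 241 other windows (1.24%) reached that share. The rho and ru window had 23.5% of its length in peaks, or 25890 bp, against a median of 6.06% (3.62 to 10.9%), and 5 of 219 windows (2.28%) reached it. At pnt, 12.1% of the window lay in peaks, or 12108 bp, against a median of 6.89% (3.88 to 11.3%), and 64 of 277 windows (23.1%) reached it. Windows with many peaks are also covered more, so these orders are not independent of the peak numbers. Even among the 15 windows of 3L with at least as many peaks as vn, 12 had less of their length in peaks, and their median was 24.0%. Of the 10 windows with at least as many peaks as rho and ru, 7 had less of their length in peaks. For pnt it was 5 of the 57 windows of 3R with at least as many peaks. Since 53 of these 57 held more peaks than pnt, that count does not separate peak width from peak number. The median width of pnt peaks, 468 bp, was not below the 438 bp of other peaks of 3R.

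**Figure D1:**
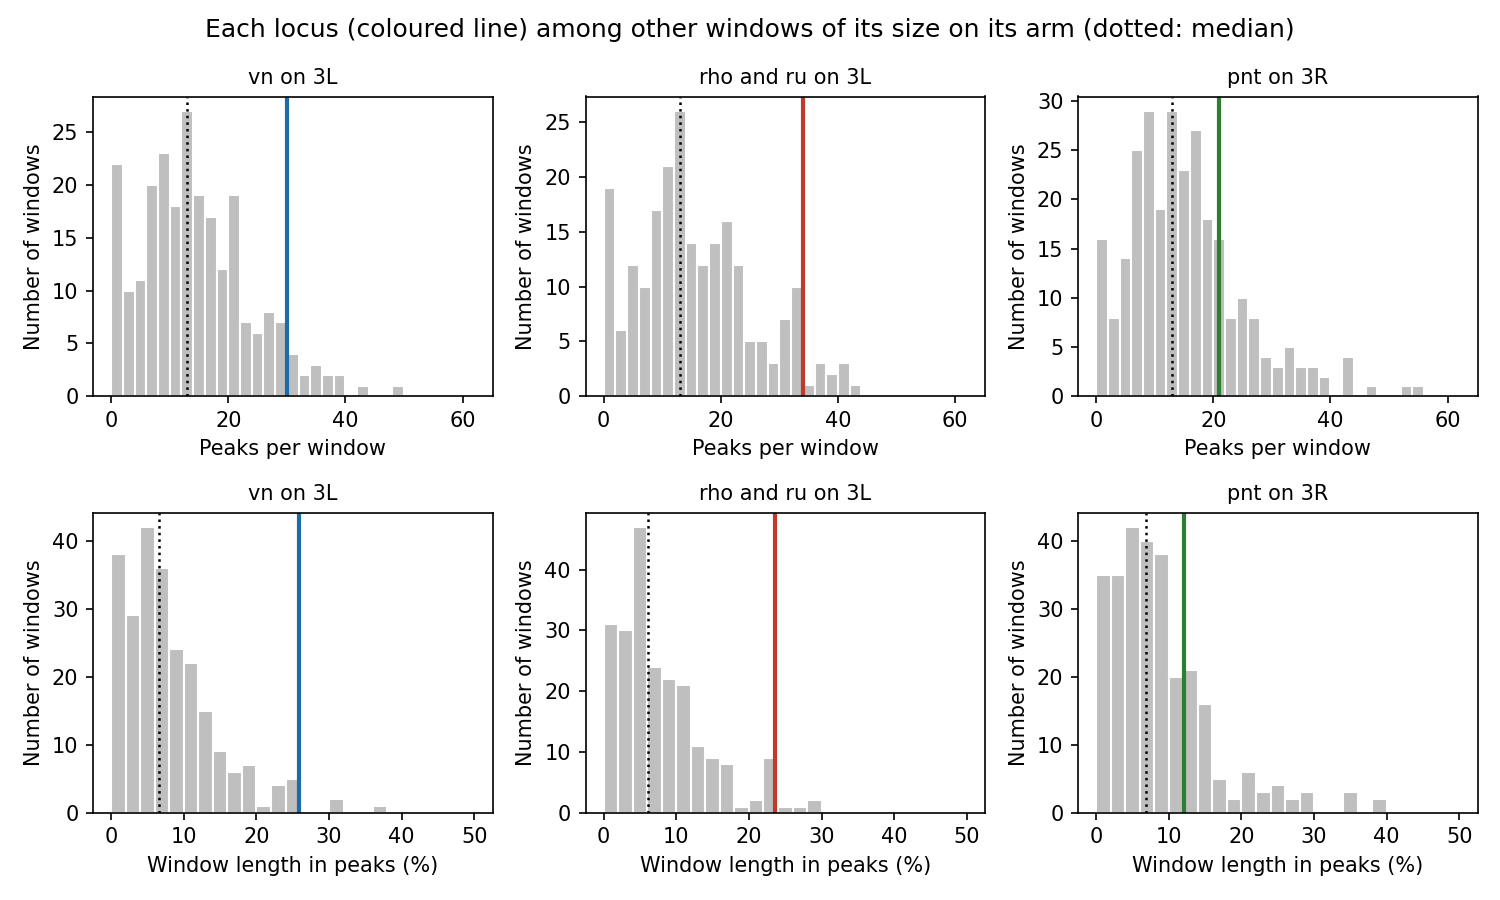
Histograms of other windows of the same size on the same arm, by number of peaks (upper row) and by percent of the window's length in peaks (lower row), with the number of windows on the vertical axis. The coloured line is the locus and the dotted line the median of the windows; vn (30 peaks, 25.8% of its length) and rho and ru (34 peaks, 23.5%) lie in the right tail, while pnt (21 peaks, 12.1%) lies nearer to the middle.

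High scores followed another order, with pnt first. Peaks in the top 10% of the list, those scoring 85.21 or more, made up 9.31% of all peaks on 3L and 9.6% of those on 3R. There were 3 among the 30 peaks of vn (10.0%, interval 2.11 to 26.5%) and 3 among the 34 of rho and ru (8.82%, interval 1.86 to 23.7%), shares close to that of the arm. At pnt, 5 of 21 peaks were in the top 10% (23.8%, interval 8.22 to 47.2%), and the interval reaches below the 9.6% of 3R. Counted per window, 16 of 277 windows of 3R (5.78%) held 5 or more such peaks, where the median was 1. The median number was 1 on 3L too, and 41 of 241 windows (17.0%) reached the 3 of vn, while 46 of 219 (21.0%) reached the 3 of rho and ru. In the top 5% of the list vn had 0 peaks, rho and ru 1 and pnt 2, and 44 of 277 windows of 3R reached the 2 of pnt. Peaks of the highest 25% by score numbered 9 of 21 at pnt (42.9%), 8 of 34 at rho and ru (23.5%) and 7 of 30 at vn (23.3%), against 24.0% on 3R and 23.7% on 3L. No interval was computed for these shares, which rest on few peaks.

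Median scores differed little from those of the arms. The median was 19.58 among vn peaks (quartiles 12.29 and 25.08) and 15.03 among rho and ru peaks (quartiles 12.56 and 34.4). Other peaks of 3L had a median of 17.27 in both comparisons (quartiles 11.97 and 33.61). For pnt it was 18.01 (quartiles 14.59 and 77.06), and for other peaks of 3R 16.67 (quartiles 11.47 and 33.61). The difference at pnt lay in the upper part of the range, where its upper quartile was 77.06 against 33.61 on the arm. By their highest score, 107 of 241 windows of 3L (44.4%) reached the 125.83 of vn, 46 of 219 (21.0%) reached the 251.37 of rho and ru, and 22 of 277 windows of 3R (7.94%) reached the 314.64 of pnt.

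The window of vn, the ligand gene, included 1 long run of 9 of its 30 peaks, while the other 21 stood in smaller runs or alone. Between 5843933 and 5861416, 9 peaks followed each other with gaps of 1000 bp or less, and peaks covered 78.3% of these 17484 bp. This run held 52.9% of all base pairs in peaks of the window. On 3L, 5 of 2294 runs or single peaks (0.218%), this one included, had 9 or more members, and 3 were at least as long, the longest being 19752 bp. Linked by gaps up to 500 bp instead, the longest run of the locus had 3 peaks. The run began with a peak of 989 bp that scored 41.8. Next came the widest peak of the locus, at 5845032 to 5848760, with 3729 bp and a score of 44.05. Its last peak, at 5858024 to 5861416, spanned 3393 bp and scored 98.63, which was second in the window. Just before it, separated by a peak of 342 bp, the peak at 5854901 to 5857111 spanned 2211 bp and scored 92.32. The other 5 members of the run scored between 19.11 and 22.68.

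The highest peak of the vn window lay outside that run, at 5825602 to 5826546, and scored 125.83 over 945 bp, rank 959 in the list. It was followed after 126 bp by a peak of 2754 bp, at 5826673 to 5829426, that scored 75.87. The fifth by score was the peak at 5803396 to 5804354, near the low edge, with 62.7 over 959 bp. Beyond the run the signal thinned out. The longest stretch without a peak, 11491 bp, separated the peak at 5863197 to 5863636 (score 11.72) from that at 5875128 to 5875573 (12.49). From there to the end of the window 7 peaks followed, with scores from 8.49 to 17.87. In steps of 10 kb, peaks covered 70.8% of 5850000 to 5860000 and 51.8% of the step before it, but 4.63% of the last one.

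Around rho and ru, the protease genes, whether peaks stood more apart than at vn depended on the gap that joins them. The 34 peaks formed 20 groups when peaks within 1000 bp were joined, of which 11 were single peaks and none had more than 4 members. Only peaks inside the window were joined here. The first group is cut by the low edge, since the nearest peak outside lies within 1000 bp of it, whereas groups of the arm are not cut. Groups of 4 or more made up 4.1% of those on 3L and 5.15% of those on 3R, where the longest of pnt also had 4. At vn gaps up to 1000 bp gave 15 groups from 30 peaks, of which 8 were single peaks, and at pnt 14 groups from 21. With gaps up to 2000 bp the order of vn and rho and ru turned. There were then 9 groups at rho and ru, the longest with 12 peaks, against 11 at vn, the longest with 10, and 11 at pnt, the longest with 4. The peak at 1456279 to 1460456 was both the highest and the widest of the window, reaching 251.37 over 4178 bp. It ranked 262 in the list and 56 on 3L. Beside it, at 1450888 to 1453402, lay a peak of 2515 bp that scored 106.85, the third by score. These are the tall blocks right of the centre in the map of the 3 windows. The second by score, with 107.45 over 1389 bp, lay at the low edge, at 1390371 to 1391759.

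The fourth peak of the rho and ru window by score, at 1441798 to 1443495, reached 66.43 over 1698 bp. The fifth, at 1489440 to 1489827, reached 58.82 over only 388 bp and was the last peak before the high edge. A wide peak of 2092 bp at 1417377 to 1419468 scored 58.69. The side near the low edge was sparse, with the longest empty stretch of 15106 bp between the peaks at 1392322 to 1392851 (score 10.72) and 1407958 to 1408662 (14.1). The 10 kb steps from 1420000 to 1430000 and from 1490000 to 1500000 held 0 peaks, while 64.4% of 1450000 to 1460000 lay in peaks. By score, 13 of the 34 peaks (38.2%) were in the next to lowest 25% of the list, against 26.5% on 3L, and 7 (20.6%) in the lowest, against 23.3% on 3L. For these shares too no interval was computed.

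**Figure D2:**
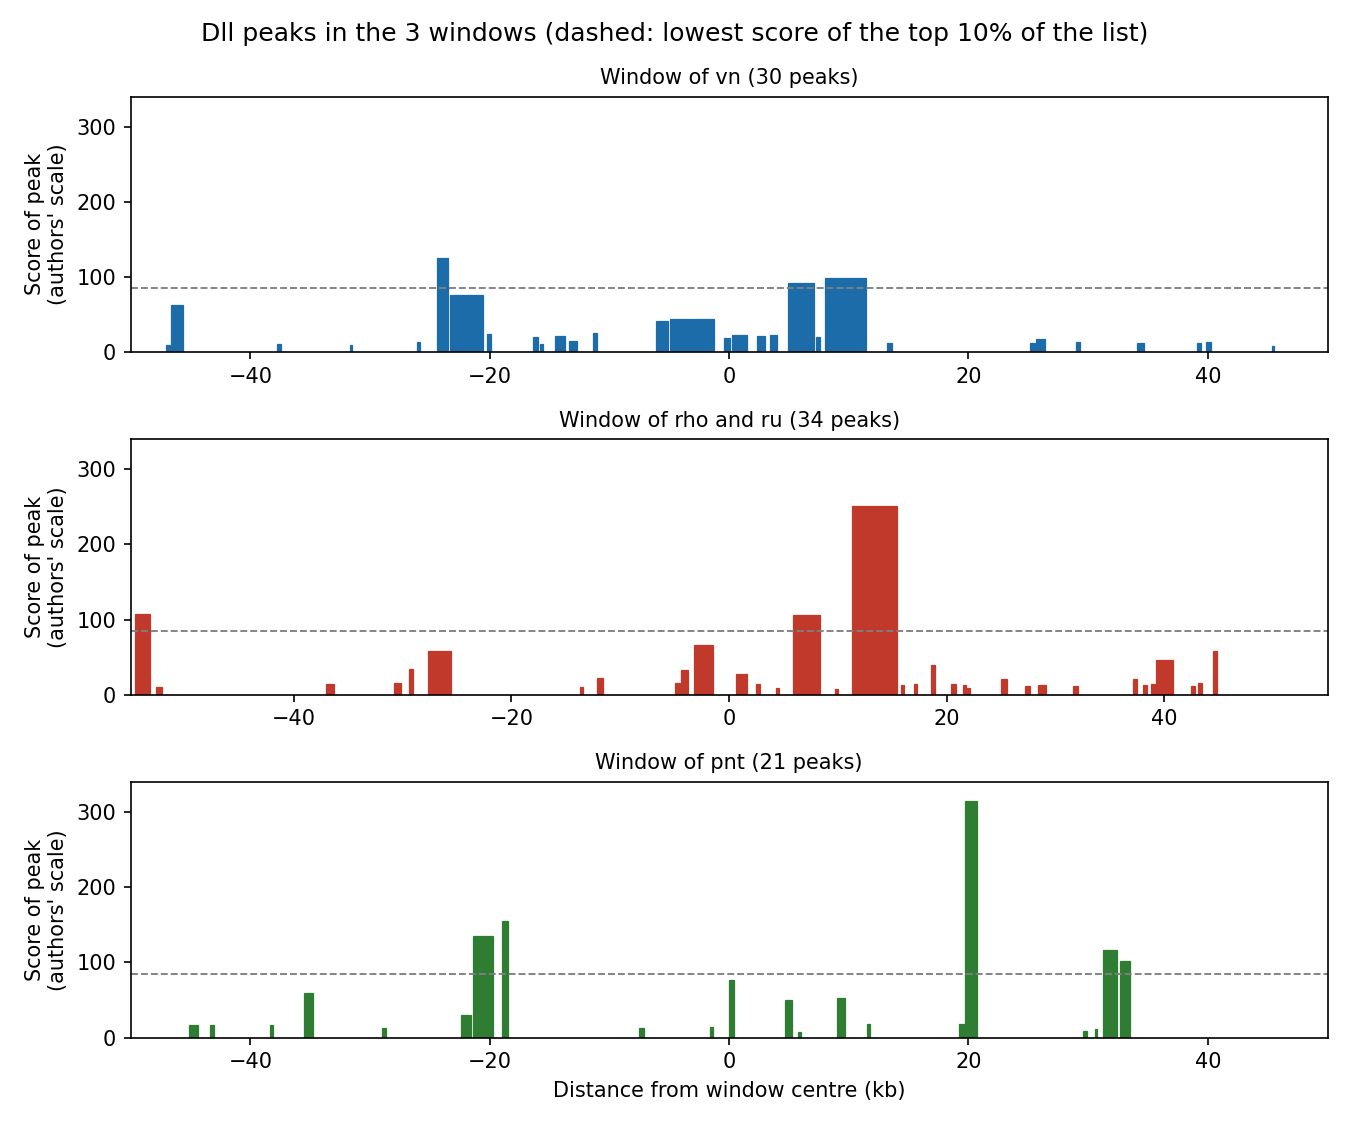
Each bar is a Dll peak, drawn to its width at its distance in kb from the centre of the window (horizontal axis), with its score on the authors' own scale (vertical axis). The dashed line is the lowest score of the top 10% of the list, 85.21; vn shows wide bars of moderate height, rho and ru 1 wide bar that reaches 251.37, and pnt bars of at most 1683 bp, the highest of which reaches 314.64.

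At pnt, the gene of the ETS-domain activator, peaks were fewer, and 5 of them were in the top 10% by score. The highest peak of all 3 windows lay there, at 19159698 to 19160727, and scored 314.64 over 1030 bp. It ranked 135 in the list, the only 1 of the 85 peaks within the top 1%. The second, at 19121019 to 19121549, scored 155.49 over 531 bp. Close before it, at 19118626 to 19120308, lay the widest peak of the window, with 135.37 over 1683 bp. The fourth and the fifth were neighbours, 268 bp apart. They lay at 19171265 to 19172433 with a score of 116.29 and at 19172702 to 19173485 with 102.04, and the latter was the last peak of the window.

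The 5 high peaks of pnt thus stood at 3 places. Relative to the window's centre, one pair lay at -20.53 and -18.72 kb, the highest peak at 20.21 kb, and the other pair at 31.85 and 33.09 kb. Between the first and the second of these places were smaller peaks, of which those at 19139963 to 19140430 (score 77.06), 19149045 to 19149682 (52.97) and 19144694 to 19145228 (49.33) led. The longest gap between neighbouring peaks of the window, 10962 bp, ran from the peak at 19121019 to 19121549 to that at 19132512 to 19132855 (score 12.29). A longer stretch without a peak ran from the end of the last peak, 19173485, to the end of the window. At most 25.7% of any 10 kb step of the window lay in peaks, against 70.8% at vn and 64.4% at rho and ru. The last step, from 19180000 to 19190000, held 0 peaks.

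How the loci ranked by short gaps between neighbouring peaks depended on the limit. Of the 29 gaps at vn, 15 were 1000 bp or shorter (51.7%, interval 32.5 to 70.6%), against 32.7% on 3L. At rho and ru it was 14 of 33 gaps (42.4%, interval 25.5 to 60.8%), and at pnt 7 of 20 (35.0%, interval 15.4 to 59.2%), against 34.7% on 3R. The intervals of rho and ru and of pnt include the share of their arm, and that of vn, 32.5 to 70.6%, only just does. Gaps up to 500 bp made up 41.4% at vn (interval 23.5 to 61.1%) and 18.2% at rho and ru, against 20.5% on 3L, and 15.0% at pnt against 20.4% on 3R. Gaps up to 2000 bp were 65.5% at vn (interval 45.7 to 82.1%) and 75.8% at rho and ru (interval 57.7 to 88.9%), against 47.5% on 3L, and 50.0% at pnt against 49.4% on 3R. At that limit rho and ru stood above vn, and its interval left out the share of the arm, which is a description and no test. Windows with many peaks also have shorter gaps, so shares of short gaps and runs are not independent of the peak numbers. No comparison with windows of like peak number was made for gaps. The median gap was 877 bp at vn, 1285 bp at rho and ru and 2208 bp at pnt, against 2187 bp on 3L and 2053 bp on 3R.

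Wide peaks were found in both windows of 3L and not at pnt. Peaks over 2000 bp made up 2.26% of all peaks on 3L and 2.18% of those on 3R. At vn they were 4 of 30 (13.3%, interval 3.76 to 30.7%) and at rho and ru 3 of 34 (8.82%, interval 1.86 to 23.7%), while pnt had 0 of 21, which an exact interval extends to 16.1%. None of the 241 other windows laid out from vn held 4 such peaks, the most being 3. With overlapping windows every 10 kb there were 5 of 2407 that held 4 or more. For rho and ru, 5 of 219 windows (2.28%) held 3 or more, including the window from 5790000 to 5900000, which takes in vn and held 4. For pnt, 57 of 277 windows held at least 1, so that a window with 0 is common on 3R. Where peaks over 1500 bp are counted, vn had 4, rho and ru 5 and pnt 1. None of the 219 windows then reached the 5 of rho and ru, and 8 of 241 reached the 4 of vn. Median widths did not show the difference, being 475 bp at vn (interquartile range 343.5 to 926), 431.5 bp at rho and ru (329.5 to 690.5) and 468 bp at pnt (297 to 764), against 428 bp for other peaks of 3L in the case of vn and 438 bp for those of 3R.

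Set against peaks of like width, more of the pnt peaks than of its arm scored above the median. Of the vn peaks and of the rho and ru peaks, fewer did so than on their arm. For rho and ru, whether the interval included the arm's share depended on how alike widths had to be. Across the list wider peaks have higher scores, so each peak was compared with all peaks of the list within 10% of its width, a comparison chosen after the values were seen. On 3R, 45.3% of peaks scored above the median of such peaks, and 51.3% did on 3L. At pnt it was 15 of 21 (71.4%, interval 47.8 to 88.7%). At vn it was 8 of 30 (26.7%, interval 12.3 to 45.9%) and at rho and ru 11 of 34 (32.4%, interval 17.4 to 50.5%). Each of these intervals leaves out the share of its own arm, those of rho and ru and of pnt by little. The intervals take neighbouring peaks as independent draws, and the comparison was chosen afterwards, so this is a description and no test. With widths within 20%, 12 of 34 peaks of rho and ru scored above the median (35.3%, interval 19.7 to 53.5%). That interval includes the share of 3L. The counts of vn and pnt stayed at 8 and 15 with widths within 5% and within 20%, and their intervals left out the arm's share under both. For pnt the margin was small, with a lower bound of 47.8% against 46.6% on 3R at widths within 20%. Among windows of the arm with at least 10 peaks, 11 of 185 on 3R (5.95%) had as large a share as pnt. A share as small as that of vn was found in 10 of 155 windows of 3L (6.45%), and 17 of 155 (11.0%) had one as small as that of rho and ru. The second peak of pnt by score, at 19121019 to 19121549, exceeded 98.6% of 1849 peaks of its width, and the first exceeded 96.9% of 805. The widest of vn, at 5845032 to 5848760, exceeded 3.12% of 32. At rho and ru the members were mixed, for the narrow peak at 1463560 to 1463886 (score 39.27) exceeded 96.1% of 2162 while that at 1473376 to 1474127 (12.49) exceeded 4.34% of 1222.

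**Figure D3:**
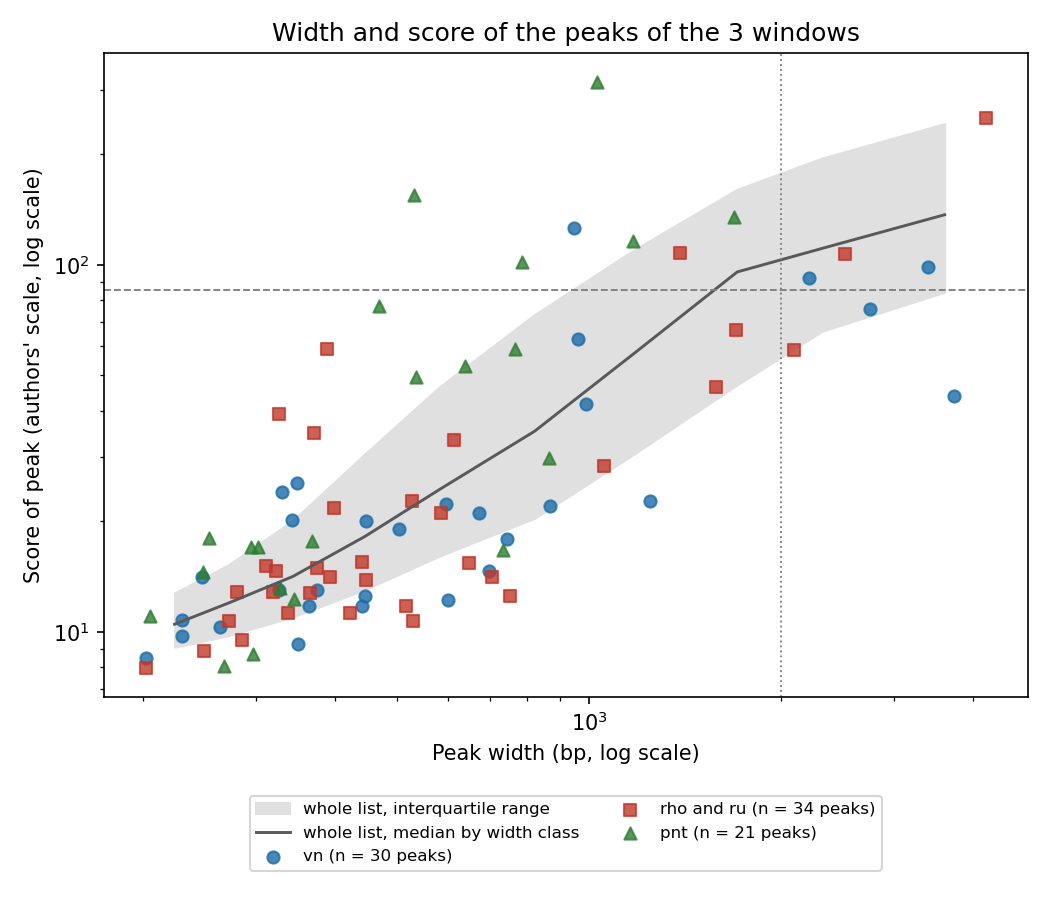
Width of each peak in bp (horizontal axis, log scale) against its score on the authors' scale (vertical axis, log scale) for the 30 peaks of vn, 34 of rho and ru and 21 of pnt; the grey line and band are the median and interquartile range of the whole list by class of width, the dashed line the score of 85.21 and the dotted line 2000 bp. Points of pnt lie mostly above the grey line and points of vn mostly below it.

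The surroundings differed between the loci. At vn the excess of peaks was local, since the 3 windows on the low side held 11, 22 and 5 peaks and those on the high side 17, 14 and 13. None of these 6 windows reached the 30 peaks of vn, and at most 12.8% of any lay in peaks. A higher score than the 125.83 of vn occurred in 1 of them, with 248.25 in the window from 5600000 to 5700000. Near the rho and ru window lay other windows rich in peaks, but those directly next to it held fewer. By rising position, the order used for all 3 loci, there were 40, 32 and 20 peaks on the low side. On the high side there were 11, 33 and 31, the first of these below the arm's median of 13. One of the 6 neighbours, from 1060000 to 1170000, had more peaks than the window itself and a similar share of its length in peaks, 23.6%. The highest score among these neighbours, 416.02, lay in the window from 1500000 to 1610000. For pnt, 9, 21 and 19 peaks were followed on the high side by 32, 17 and 5. The window with 32 peaks, from 19190000 to 19290000, had 0 peaks in the top 10% and a highest score of 47.03, whereas pnt with 21 peaks had 5. None of the 6 neighbours of pnt reached its highest score, the nearest being 261.58.

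**Figure D4:**
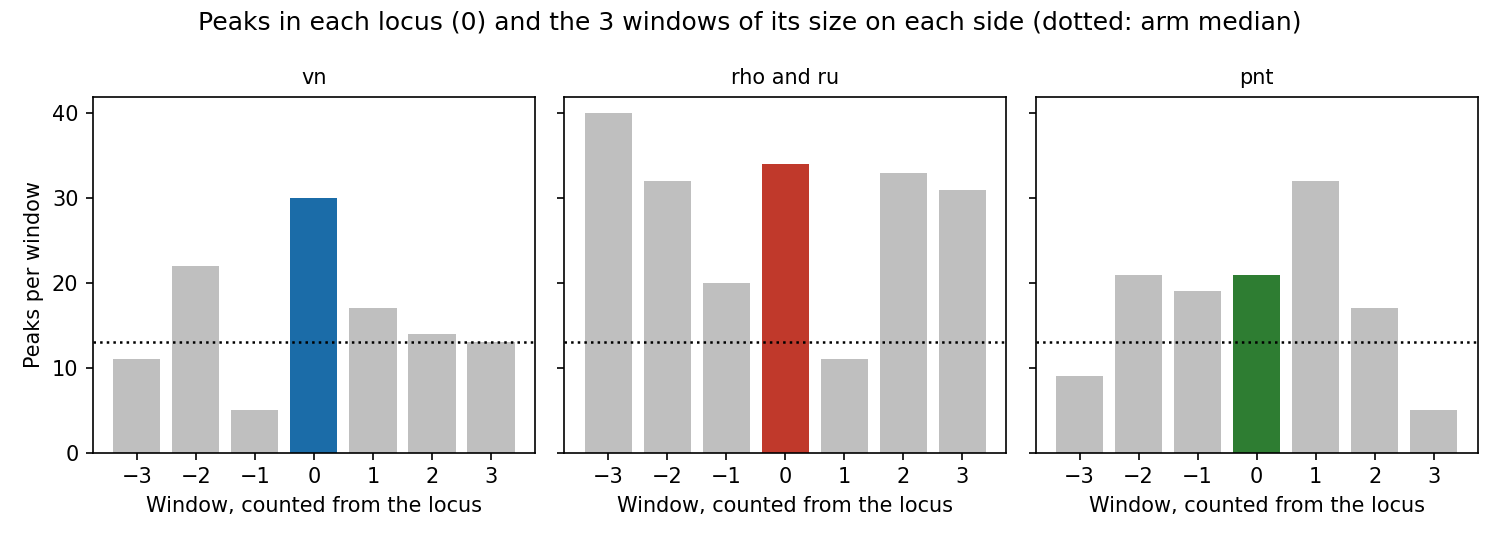
Number of peaks (vertical axis) in the window of each locus (coloured, 0) and in the 3 windows of its size on either side (grey, negative numbers toward low coordinates); the dotted line is the median of other windows of the arm, 13. vn exceeds all 6 neighbours, rho and ru exceed 5 of them, and pnt is exceeded by 1.

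The edges of the windows cut through signal at rho and ru. The nearest peak outside the low edge, at 1388350 to 1389892, had a score of 168.76, above the 107.45 of the first peak inside. Its midpoint was 879 bp from the edge and that of the first peak inside 1065 bp. With the window moved 10 kb toward low coordinates the count rose from 34 to 40 peaks. The last peak inside scored 58.82 and the next one outside 9.1. At vn the peaks next to the edges were weak, with 32.83 outside and 9.23 inside on the low side, and 8.49 inside and 12.76 outside on the high side. At pnt the low edge fell between peaks of 19.27 outside and 16.68 inside, and the high edge between 102.04 inside and 11.47 outside.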

How the data were processed

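Per the submitters' processing notes, the tools were MACS2, BWA and CASAVA, the last in versions 1.7.0.2 and 1.7.0.3, on build BDGP 5. For the other tools no version, and for the peaks neither the calling threshold nor any pooling of replicates, is stated in the sources at hand. Per the file headers, the deposited list is GFF version 3 on FlyBase release 5, so positions count from 1. Its single score per peak was deposited by the authors without a named scale.

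Peaks were assigned to windows by midpoint. Windows that touched a locus were left out of its comparison, and windows were laid within the span from the first to the last peak of an arm. Width is end minus start plus 1, and gaps run between edges. Peaks named by position are the 5 highest, the widest and those beside the longest gap of each locus; others were chosen after their values were seen. The members and lists were chosen with earlier results of these data known. Wide peaks, runs and likeness of width were added after the data were seen. Position relative to genes, motifs and other pathway genes need release 5 and were not analysed here. Counting was tested on simulated data. Python 3.11.15, numpy 2.4.6, pandas 2.3.3, scipy 1.17.1 and matplotlib 3.10.9 were used.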

Additional observations from a re-analysis of the deposited data

How the results depend on the processing

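Of 111 alternative values for 30 results, 88 stayed within the 95% interval of the reported value or, for runs, within 1.5 times. For ranks that interval takes each window as an independent draw, and for medians it comes from the ordered values of the peaks. Ranks below are percents of other windows with a lower value, and the cause of a move was not tested unless the setting makes it. With the highest 25% of peaks, ranks by number moved to 84.6 for vn, 89.0 for rho and ru and 92.4 for pnt, and that of pnt by length in peaks to 87.7. The highest 50% gave 83.6 for rho and ru. Counting peaks of the top 5% gave 0.0 for vn, 54.3 for rho and ru and 84.1 for pnt. The 0.0 of vn follows from its 0 such peaks, since no window can hold fewer, and all windows with 0 tie with vn. Joining peaks within 1000 bp, which makes 1 of a run, moved vn to 83.4 and the median width at rho and ru to 1330 bp. The window of rho and ru moved 10 kb down ranked 98.2. For wide peaks, a limit of 1500 bp gave 96.7 for vn, 100.0 for rho and ru and 58.1 for pnt, and 1000 bp gave 92.5 for vn and 75.5 for pnt. At 2000 bp the rank of pnt was 0.0 however the windows were laid, since it had 0 such peaks and no window can hold fewer. Those values of pnt could not move, though they count among the 88. By construction, shares of short gaps and longest runs follow their limit. Gaps up to 500 bp were 18.2% at rho and ru and 15.0% at pnt, and those up to 2000 bp 75.8% at rho and ru, above the 65.5% of vn and the 47.5% of 3L. The longest run had 3 peaks at vn and 2 at pnt with 500 bp, and 12 at rho and ru with 2000 bp. No paired analysis was possible because the list holds no value per library, and for the same reason no replicate could be left out.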
